A study of Mus musculus with 36 samples.

Results

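The 9 genes described here encode adipokines and other factors made by fat cells: adiponectin (Adipoq), resistin (Retn), leptin (Lep), adipsin (Cfd), retinol binding protein (Rbp4), nicotinamide phosphoribosyltransferase (Nampt), angiopoietin-like protein (Angptl4), apelin (Apln) and the melanocortin receptor accessory protein (Mrap), which is a membrane protein and not secreted. They were taken by symbol, matched through the Ensembl gene identifiers of the expression table, and are 9 of its 52505 genes. The cells were 3T3-L1, mouse fibroblasts that a hormonal cocktail drives to become fat cells, and RNA was sequenced from 12 libraries in 4 groups of 3. The groups were cells labelled zfp217-/- at day 2 of the cocktail (KO-labelled, day 2), cells labelled wild type at day 2 (WT-labelled, day 2), and the same 2 genotypes at day 0. All 4 groups were grown in DMEM with fetal bovine serum, and the cocktail was dexamethasone, isobutyl-methylxanthine, insulin and indometacin. The labels do not say whether the knockout line is 1 clone or whether replicates were separate cultures, so the p-values measure the spread between these libraries, which may be technical. The 24 samples of the methylated RNA sequencing, immunoprecipitated and input, were not analysed here.

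Fat tissue is an endocrine organ, and its secreted proteins reach liver, muscle, brain and vessels. Adiponectin raises insulin sensitivity and fatty acid oxidation through its receptors, leptin reports fat stores to the hypothalamus, and resistin in mice opposes insulin action. Several of these genes are silent in fibroblasts and are switched on as fat cells form, in 3T3-L1 cells largely under PPARγ and C/EBPα, whereas Nampt, Angptl4 and Apln are also used by many other cells.

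Levels are FPKM, fragments per kilobase of gene length and scaled to depth, as the authors deposited them. Whole reads could be recovered from the values, with 18073258 to 23114994 reads per library. At these depths a gene with 0 reads had a level of at most 0.13 to 0.166 CPM (reads scaled to library depth), the bound set by 3 reads, which covers counting error only. The message of Zfp217, the gene named in the labels, was not lower in the KO-labelled libraries. It stood at 21.7, 23.4 and 22.7 FPKM in the KO-labelled and 14.6, 15.3 and 15.3 FPKM in the WT-labelled libraries at day 2, and at 25.2, 25.8 and 26.9 FPKM in the KO-labelled and 21.7, 21.9 and 22.3 FPKM in the WT-labelled libraries at day 0. Every KO-labelled library was above every WT-labelled library of its day, so the message level gives no check of the genotype labels, and each direction below is between libraries as labelled. The mitochondrial ribosomal RNA mt-Rnr1 stood at 379 to 396 FPKM in the KO-labelled day 0 libraries. In WT-labelled day 0 replicates 1, 2 and 3 it stood at 7.01, 5.87 and 264 FPKM, so that replicate 3 differed from its group. At day 2 it stood at 13.5 to 17.2 FPKM in KO-labelled and 15.6 to 19.9 FPKM in WT-labelled libraries. The KO-labelled day 0 group as a whole was thus apart, and leaving out the WT-labelled replicate does not remove that from comparisons with this group. Its part in those comparisons was not tested. Without WT-labelled day 0 replicate 3, the calls given below for single genes at day 0 and over the cocktail in WT-labelled cells, for the 9 genes and the listed genes named with them, kept their direction and side of the threshold. The log2 rise over the cocktail in WT-labelled cells was then 5.55 for Adipoq, 6.69 for Retn, 2.45 for Cfd and 5.79 for Mrap, and with all libraries it was 5.52 for Adipoq, 6.69 for Retn, 2.47 for Cfd and 5.8 for Mrap. The counts over the marker lists and the lists of receptors, enzymes and other secreted factors were not repeated without that replicate.

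Fat cell markers rose over the cocktail in both genotypes, 7 of 7 called in each by the test described with the 9 genes below, beside 33.9% of all genes tested in KO-labelled and 34.2% in WT-labelled cells. All 7 were called lower in KO-labelled than in WT-labelled cells at day 2, beside 40.6% of all genes. The summed level of 7 markers (Fabp4, Plin1, Cidec, Pnpla2, Lipe, Cd36 and Pparg, all of which reached 1 FPKM in some library) was 541 to 548 FPKM in KO-labelled and 6984 to 7171 FPKM in WT-labelled libraries at day 2, and 37.0 to 40.7 FPKM in KO-labelled and 28.2 to 29.6 FPKM in WT-labelled libraries at day 0. The 6 preadipocyte markers (Dlk1, Pdgfra, Thy1, Cd34, Ly6a and Pdgfrb) summed to 815 to 825 FPKM in KO-labelled and 143 to 146 FPKM in WT-labelled libraries at day 2, and to 1766 to 1810 FPKM in KO-labelled and 1110 to 1152 FPKM in WT-labelled libraries at day 0. At day 2, 5 of the 6 were called higher in KO-labelled cells, beside 40.8% of all genes. The other, Cd34, was not called, at 0.223 FPKM in KO-labelled and 0.345 FPKM in WT-labelled cells, and at day 0 it was at 0.28 FPKM in KO-labelled and 3.94 FPKM in WT-labelled cells. At day 0 the sums of both lists were thus higher in KO-labelled cells, but not every marker was. Of the fat cell markers, Pnpla2 and Lipe were called higher, Pparg lower and 4 not called. Pparg averaged 2.85 FPKM in KO-labelled and 10.2 FPKM in WT-labelled cells. Of the preadipocyte markers, 4 were called higher, Cd34 lower and 1 not called. Among all genes tested 38.3% were called higher and 44.2% lower. In these bulk samples fewer cells of a type and less RNA per cell cannot be told apart, and the part of either list in the results below was not tested. None of the 4 endothelial or the 4 hepatocyte markers reached 1 FPKM in any library, and of the 6 macrophage markers only Cd14 and Cd68 did, with sums of the 6 of 10.3 to 11.6 FPKM in KO-labelled and 6.18 to 7.79 FPKM in WT-labelled libraries at day 2. Of the 4 bone markers only Runx2 reached 1 FPKM, and the 4 skeletal muscle markers summed to at most 1.10 FPKM. Of the 5 brown fat markers only Elovl3 reached it, and Ucp1 was listed at 0 in all 12 libraries.

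The promoters of Adipoq, Retn and Cfd are shown because these genes moved together, and that of Lep because it gave no read. Each run holds the 250 bases before the gene's start, 5′ to 3′ on the gene's strand, from RefSeq (GRCm38.p6), at chr16:23146286-23146535 for Adipoq, chr8:3655520-3655769 for Retn, chr10:79890603-79890852 for Cfd and chr6:29059971-29060220 for Lep, all 4 on the plus strand. Capitals mark a match to one of the motifs named after the sequences.
Adipoq promoter: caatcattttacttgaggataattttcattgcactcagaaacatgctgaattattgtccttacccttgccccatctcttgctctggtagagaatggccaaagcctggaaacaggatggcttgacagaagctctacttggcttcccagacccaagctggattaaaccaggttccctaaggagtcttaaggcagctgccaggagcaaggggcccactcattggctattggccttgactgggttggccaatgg
Retn promoter: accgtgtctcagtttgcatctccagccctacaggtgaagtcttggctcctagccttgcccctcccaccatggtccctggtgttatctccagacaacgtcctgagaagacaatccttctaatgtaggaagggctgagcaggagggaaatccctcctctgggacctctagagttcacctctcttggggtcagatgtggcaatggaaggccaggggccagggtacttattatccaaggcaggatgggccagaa
Cfd promoter: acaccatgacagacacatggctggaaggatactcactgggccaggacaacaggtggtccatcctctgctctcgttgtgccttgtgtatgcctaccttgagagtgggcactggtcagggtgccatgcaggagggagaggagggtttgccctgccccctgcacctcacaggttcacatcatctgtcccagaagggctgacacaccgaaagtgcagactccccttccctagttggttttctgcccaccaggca
Lep promoter: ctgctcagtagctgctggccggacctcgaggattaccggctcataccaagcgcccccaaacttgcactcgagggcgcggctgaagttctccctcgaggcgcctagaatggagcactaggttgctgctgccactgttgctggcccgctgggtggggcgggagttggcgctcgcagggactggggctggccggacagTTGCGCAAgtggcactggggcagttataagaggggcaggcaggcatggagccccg
Of the 9 genes, 7 were matched to a promoter, Rbp4 to more than 1 start; Angptl4 and Mrap were not shown.

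Both strands were searched for 5 motifs: TTGCNNAA, a form bound by C/EBP proteins; AGGTCA, the hexamer of many nuclear receptors; AGAACA, the hexamer of the glucocorticoid receptor; TGACGTCA, the cyclic AMP element; and TATAAA, the TATA box. Among 32851 promoters of the same length, 9.56% held the first, 14.0% the second, 16.1% the third, 1.55% the fourth and 12.4% the fifth. The Lep promoter held TTGCGCAA, 55 to 48 bases before the start, which reads the same on both strands. The Adipoq, Retn, Cfd and Apln windows held none of the 5 motifs. Nampt held AGGTCA 151 to 146 bases before its start, and one Rbp4 start held a C/EBP form on the reverse strand, 128 to 121 bases upstream, and a TATA box at 28 to 23 bases. These matches describe the letters of the windows and show no binding.

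Values were tested on the log2(FPKM + 1) scale with limma for the 12961 genes whose mean across all libraries was 1 FPKM or more, and p-values were adjusted over all of them by the Benjamini-Hochberg method with a threshold of 0.05. A fitted change on this scale understates that of a low gene, so ratios of mean FPKM are given beside it. Of the 9 genes, 7 were tested, and Lep and Rbp4 were too low. Adipoq, Retn, Cfd and Mrap reached the filter only through the WT-labelled day 2 libraries, with means over the other 9 libraries of 0.194, 0.473, 0.0692 and 0.129 FPKM, so they had to differ between that group and the rest. Nampt, Angptl4 and Apln passed without that group. At day 2, 0 of the 7 were called higher and 6 lower in KO-labelled than in WT-labelled cells, where 40.8% of all genes tested were called higher and 40.6% lower. Of the 6 lower calls, those of Adipoq, Retn, Cfd and Mrap were fixed in direction by the filter, so the count is given as a description. Of the 3 genes free of it, Nampt and Angptl4 were called lower and Apln was not called.

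**Figure D1:**
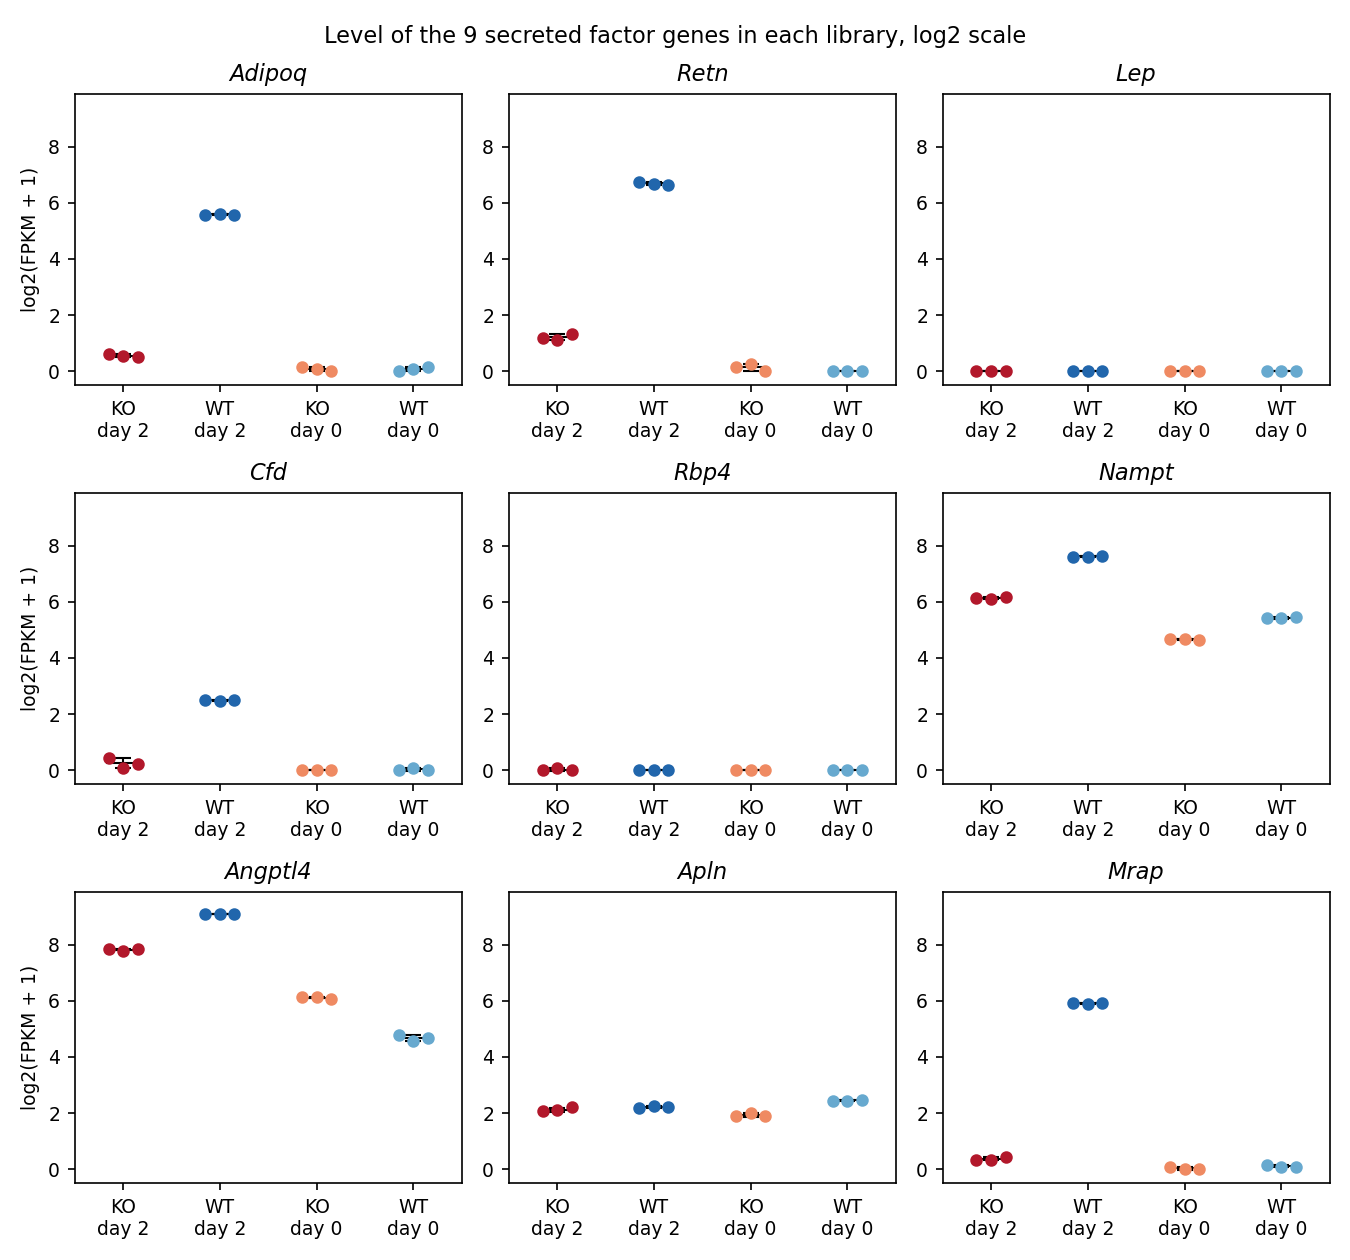
Level of each of the 9 genes in each library, as log2(FPKM + 1), with points for libraries and black bars for the mean and SD of each group of 3; KO and WT are the libraries so labelled. Adipoq, Retn, Cfd and Mrap stood high in the WT-labelled day 2 libraries only, Nampt and Angptl4 were above 20 FPKM in all 12, Apln lay between 2.70 and 4.59 FPKM, and Lep and Rbp4 lay at or next to 0.

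Adipoq (chr16:23146536-23157968, GRCm38), the adiponectin gene, was close to silent in every group but one. Its level was 0.536, 0.459 and 0.422 FPKM in the KO-labelled day 2 libraries and 46.8, 48.0 and 46.5 FPKM in the WT-labelled day 2 libraries, against 0.121, 0.0508 and 0 FPKM in KO-labelled and 0, 0.0532 and 0.103 FPKM in WT-labelled libraries at day 0. The groups did not overlap at day 2, and all 3 KO-labelled day 2 libraries were still above all day 0 libraries. At day 2 the mean was 0.472 ± 0.0583 FPKM in KO-labelled and 47.1 ± 0.834 FPKM in WT-labelled cells (SD, n = 3 each), 1.0% of the WT-labelled level or 99.8-fold lower (log2 change -5.03, SE 0.07, limma adjusted p = 2.04e-14). Over the cocktail the gene rose in KO-labelled cells on few reads, 27 at day 2 against 3 at day 0, a ratio of 8.25 with a 95% counting interval of 2.71 to 45.3 (limma adjusted p = 5.81e-05). That ratio was 5.5 without KO-labelled day 0 replicate 3 and 18.6 without replicate 1. In WT-labelled cells it had 2766 reads at day 2 and 3 at day 0, a ratio of 906 with a counting interval of 311 to 4415 (limma adjusted p = 6.26e-15), which was 604 without WT-labelled day 0 replicate 1 and 1772 without replicate 3. The filter fixed the direction of the comparisons with the WT-labelled day 2 libraries, so their p-values are given as a description. At day 0 the genotypes held 3 reads each, and no difference was detectable at this depth.

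Retn (chr8:3655770-3659818), the resistin gene, followed the same order. It was at 1.29, 1.15 and 1.53 FPKM in KO-labelled and 106, 102 and 99.5 FPKM in WT-labelled libraries at day 2. At day 0 it was at 0.11, 0.185 and 0 FPKM in KO-labelled libraries and at 0 in all 3 WT-labelled libraries. The day 2 libraries of the genotypes lay far apart, and the KO-labelled day 2 libraries exceeded every day 0 library. Retn, like Adipoq, entered the test only through the WT-labelled day 2 libraries, so its p-value at day 2 is a description. The KO-labelled mean at day 2 was 1.32 ± 0.196 FPKM against 102 ± 3.37 FPKM in WT-labelled cells (SD, n = 3 each), 77.5-fold lower (log2 change -5.48, SE 0.08, limma adjusted p = 2.75e-14). Over the cocktail Retn rose 13.5-fold in KO-labelled cells, with 83 reads at day 2 and 6 at day 0, a ratio that was 8.98 without KO-labelled day 0 replicate 3 and 24.1 without replicate 2. It rose at least 2176-fold in WT-labelled cells, where 6625 reads at day 2 stood against 0 at day 0, the bound being set by 3 reads over the group. At day 0 the 6 reads of KO-labelled against 0 of WT-labelled cells did not pass the test (log2 change 0.13, limma adjusted p = 0.136), but did without KO-labelled day 0 replicate 3, the library with 0 reads (0.20, limma adjusted p = 0.0348).

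Cfd (chr10:79890853-79892655) encodes adipsin, the serine protease that starts the alternative complement pathway, and was the lowest of the genes that came on. It was at 0.348, 0.0585 and 0.161 FPKM in KO-labelled and 4.68, 4.58 and 4.61 FPKM in WT-labelled libraries at day 2. Before the cocktail Cfd was at 0 in all KO-labelled libraries and at 0, 0.0543 and 0 FPKM in WT-labelled libraries. The genotypes did not overlap at day 2, where the KO-labelled libraries held 11 reads in all and the WT-labelled 266. Since Cfd was tested only through the latter group, its p-value between genotypes at day 2 is a description. The mean was 24.4-fold lower in KO-labelled than in WT-labelled cells at day 2, 0.189 ± 0.147 against 4.62 ± 0.0503 FPKM (SD, n = 3 each; log2 change -2.25, SE 0.09, limma adjusted p = 4e-10). With so few reads the fold rested on single libraries, at 18.1 without KO-labelled day 2 replicate 2 and 42.0 without replicate 1. In WT-labelled cells Cfd rose by a ratio of 255 over the cocktail, with a counting interval of 46.7 to 10408 since day 0 held 1 read. The ratio was 170 without WT-labelled day 0 replicate 1 or 3, and without replicate 2, which held that read, there was none. In KO-labelled cells 11 reads at day 2 against 0 at day 0 made it at least 3.44-fold higher (log2 change 0.24, limma adjusted p = 0.0362). At day 0 Cfd had 0 reads in KO-labelled and 1 in WT-labelled cells, and no difference was detectable at this depth. The call over the cocktail in KO-labelled cells was lost without any one of KO-labelled day 0 replicates 1, 2 and 3 (limma adjusted p = 0.0667, 0.0685 and 0.0688), without KO-labelled day 2 replicate 1 (log2 change 0.15, limma adjusted p = 0.152) and without replicate 3 (limma adjusted p = 0.0559). It was also lost with a replicate block (limma adjusted p = 0.0517) and when only the libraries compared were fitted (limma adjusted p = 0.104).

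Mrap (chr16:90738207-90749785) encodes the protein that carries the ACTH receptor Mc2r to the cell surface, and showed the widest gap between genotypes among the 7 genes tested. Its level was 0.269, 0.253 and 0.349 FPKM in KO-labelled and 59.1, 57.6 and 60.4 FPKM in WT-labelled libraries at day 2. The day 0 level was 0.0666, 0 and 0 FPKM in KO-labelled and 0.112, 0.0586 and 0.0566 FPKM in WT-labelled libraries. Only the WT-labelled day 2 libraries stood above 1 FPKM. Mrap passed the filter through them alone, so its p-value between genotypes at day 2 is a description. The day 2 mean of 0.29 ± 0.0514 FPKM in KO-labelled cells was 0.491% of the 59.0 ± 1.4 FPKM in WT-labelled cells (SD, n = 3 each), 204-fold lower (log2 change -5.54, SE 0.06, limma adjusted p = 4.96e-15). Over the cocktail Mrap rose 779-fold in WT-labelled cells, where day 0 held 4 reads and leaving out single libraries gave 692 to 1024. In KO-labelled cells 15 reads at day 2 against 1 at day 0 gave a ratio of 13.1 with a counting interval of 2.26 to 617 (limma adjusted p = 0.000452). It was 8.71 without KO-labelled day 0 replicate 2, and without replicate 1, which held the read, there was none. At day 0 the genotypes differed by 1 read against 4, which did not pass (limma adjusted p = 0.289).

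Lep (chr6:29060221-29073876), the leptin gene, had 0 reads in all 12 libraries. Rbp4 (chr19:38116620-38125321), whose protein carries retinol in blood, was above 0 only in KO-labelled day 2 replicate 2, at 0.0483 FPKM, and was at 0 in the other 11 libraries. That value was taken as 1 read, the fewest it allows, since a gene seen in 1 library gives no check of its read number. No comparison could be made for either gene, and a level below the limit set by 3 reads was not detectable.

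Nampt, Angptl4 and Apln were expressed in every library, so their comparisons rest on 538 to 53125 reads a group. Nampt (chr12:32820335-32853369) encodes the enzyme that salvages nicotinamide into NAD and, released from cells, the adipokine visfatin. It was at 69.8, 68.1 and 71.1 FPKM in KO-labelled and 194, 194 and 199 FPKM in WT-labelled libraries at day 2, and at 24.6, 24.4 and 24.1 FPKM in KO-labelled and 41.5, 41.8 and 43.5 FPKM in WT-labelled libraries at day 0. The 4 groups did not overlap, and the KO-labelled group was the lower at both days. Nampt was 2.81-fold lower in KO-labelled cells at day 2 (69.7 ± 1.53 against 196 ± 2.59 FPKM in WT-labelled cells, SD, n = 3 each; log2 change -1.48, SE 0.02, limma adjusted p = 1.18e-13) and 1.74-fold lower at day 0 (24.4 ± 0.271 against 42.3 ± 1.06 FPKM; log2 change -0.77, SE 0.02, limma adjusted p = 4.21e-11). It rose 2.86-fold over the cocktail in KO-labelled and 4.63-fold in WT-labelled cells. Nampt shares its locus with the annotated gene Gdap10, which was at 2.31 to 2.55 FPKM in KO-labelled and 4.12 to 5.21 FPKM in WT-labelled libraries at day 2. Whether reads were counted by strand is not given in the sources used here, so reads of the pair cannot be told apart, although Gdap10 was far below Nampt in every library.

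Angptl4 (chr17:33774900-33781575) encodes a secreted inhibitor of lipoprotein lipase, induced by fasting and by fatty acids through PPARs, and had the highest level of the 9 genes at day 2. It was at 229, 221 and 228 FPKM in KO-labelled and 551, 550 and 549 FPKM in WT-labelled libraries at day 2. Day 0 levels were 69.2, 69.2 and 66.8 FPKM in KO-labelled and 26.4, 23.0 and 24.3 FPKM in WT-labelled libraries. The order of the genotypes was therefore opposite at the 2 days, with no overlap at either. At day 2 it was 2.44-fold lower in KO-labelled cells, 226 ± 4.28 against 550 ± 0.769 FPKM in WT-labelled cells (SD, n = 3 each; log2 change -1.28, SE 0.04, limma adjusted p = 2.12e-11). At day 0 it was 2.79-fold higher in KO-labelled cells, 68.4 ± 1.4 against 24.6 ± 1.71 FPKM in WT-labelled cells (log2 change 1.44, SE 0.04, limma adjusted p = 8.92e-12). Over the cocktail it rose 3.3-fold in KO-labelled and 22.4-fold in WT-labelled cells.

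Apln (chrX:48025146-48034853) encodes apelin, the ligand of a receptor that acts on heart, vessels and glucose uptake, and stayed within a narrow range. It was at 3.19, 3.30 and 3.60 FPKM in KO-labelled and 3.57, 3.79 and 3.61 FPKM in WT-labelled libraries at day 2. Day 0 levels were 2.72, 3.00 and 2.70 FPKM in KO-labelled and 4.42, 4.42 and 4.59 FPKM in WT-labelled libraries. The genotypes overlapped at day 2 and were clearly apart at day 0. At day 2 the means of 3.36 ± 0.214 FPKM in KO-labelled and 3.66 ± 0.115 FPKM in WT-labelled cells (SD, n = 3 each) did not pass the test (log2 change -0.10, SE 0.06, limma adjusted p = 0.144). At day 0 Apln was 1.59-fold lower in KO-labelled cells, 2.81 ± 0.166 against 4.48 ± 0.0963 FPKM in WT-labelled cells (log2 change -0.53, SE 0.06, limma adjusted p = 3.42e-06). It rose 1.2-fold over the cocktail in KO-labelled cells (limma adjusted p = 0.0086) and fell 1.22-fold in WT-labelled cells (limma adjusted p = 0.00257).

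**Figure D2:**
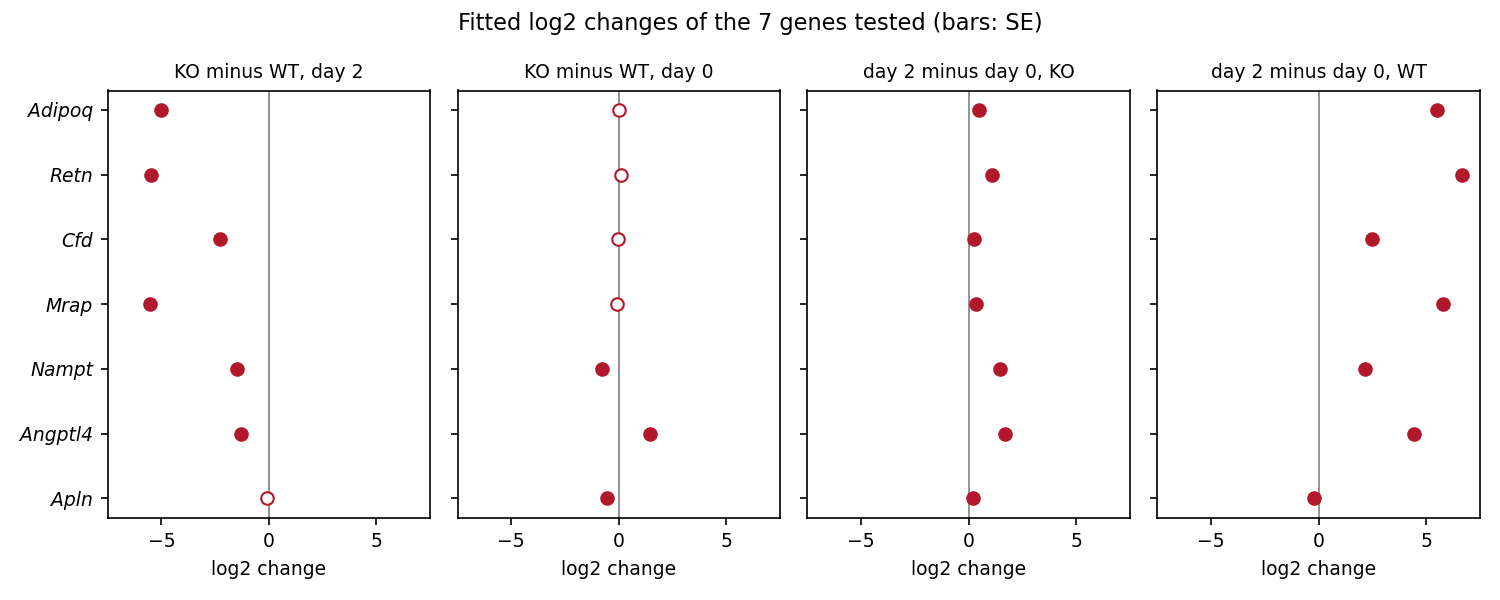
Fitted log2 change of the 7 genes tested in 4 comparisons, on the log2(FPKM + 1) scale, with bars for the SE; filled points passed an adjusted p of 0.05 and open points did not; KO and WT are the libraries so labelled. At day 2 all but Apln were lower in KO-labelled cells, at day 0 Angptl4 was higher and Nampt and Apln lower, and the change over the cocktail was more positive in WT-labelled cells for all but Apln.

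At day 0, before the cocktail, 1 of the 7 genes was called higher and 2 lower in KO-labelled than in WT-labelled cells. Of all genes tested, 38.3% were called higher and 44.2% lower. Adipoq, Retn, Cfd and Mrap held at most 6 reads a group at day 0 and could hardly be called, so these shares cannot be compared. The 3 called were Angptl4, Nampt and Apln, and they kept their calls without WT-labelled day 0 replicate 3 (log2 changes 1.44, -0.75 and -0.51). Over the cocktail 7 of the 7 were called higher and 0 lower in KO-labelled cells, where 33.9% of all genes were called higher and 38.8% lower. In WT-labelled cells 6 were called higher and 1 lower, beside 34.2% higher and 46.5% lower of all genes. Of these 6 rises, those of Adipoq, Retn, Cfd and Mrap were fixed in direction by the filter, so the count is a description. The rises of Nampt and Angptl4 and the fall of Apln were free of it. The fall of Apln in WT-labelled cells held without day 0 replicate 3 (log2 change -0.22, limma adjusted p = 0.0119).

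The change over the cocktail differed between the genotypes in all 7 genes tested. In the interaction, the day 2 minus day 0 change in KO-labelled minus that in WT-labelled cells, 1 gene was called higher and 6 lower, beside 40.8% higher and 33% lower of all genes tested. Retn (log2 -5.61, SE 0.11), Mrap (-5.47, SE 0.09) and Adipoq (-5.04, SE 0.10) had the most negative values. Angptl4 (-2.72, SE 0.06), Cfd (-2.22, SE 0.13) and Nampt (-0.71, SE 0.04) followed, and Apln, which moved in opposite directions, was at 0.43 (SE 0.08). For the 4 genes that passed the filter only through the WT-labelled day 2 libraries, the sign of this value was set by that choice, whereas for Nampt, Angptl4 and Apln it was not. Without WT-labelled day 0 replicate 3 the interactions of Nampt, Angptl4 and Apln were -0.73, -2.72 and 0.42.

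The order of the levels, in FPKM per gene length, shifted with genotype and day. In KO-labelled cells at day 2 it was Angptl4, Nampt, Apln, Retn, Adipoq, Mrap and Cfd, and neighbours did not overlap except Mrap and Cfd. In WT-labelled cells at day 2 the order was Angptl4, Nampt, Retn, Mrap, Adipoq, Cfd and Apln, with no overlap between neighbours. Apln thus ranked above Retn, Adipoq, Mrap and Cfd in KO-labelled cells, and below them in WT-labelled cells. At day 0 Angptl4 led Nampt in KO-labelled cells and Nampt led Angptl4 in WT-labelled cells, Apln was the third in both, and the other genes stayed at or below 0.185 FPKM.

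Across the 12 libraries, on the log2(FPKM + 1) scale, Adipoq, Retn, Cfd and Mrap followed one another with Pearson's r of 0.992 to 0.999. Nampt correlated with these 4 at 0.899 to 0.93 and Angptl4 at 0.772 to 0.842, while Apln lay between -0.287 and 0.286 with the other 6. The libraries form 4 groups, so these values mostly restate the 4 group means and are a description. The genes of most alike pattern, 2 for each, were Nat8l (r = 0.999) and Crat (0.9989) for Adipoq, Cd36 (0.9994) and Etv3 (0.9987) for Retn, and Slc2a4 (0.9994) and Ffar2 (0.9992) for Mrap. Cd36, the fatty acid transporter, averaged 2.91 FPKM in KO-labelled and 640 FPKM in WT-labelled cells at day 2, and Slc2a4, which encodes the insulin-responsive glucose transporter, 0.108 and 17.1 FPKM in the KO-labelled and WT-labelled cells. For the others they were Zfp706 (0.9973) and Coq6 (0.9972) for Cfd, Psme3 (0.998) and Rnf125 (0.9978) for Nampt, Cers4 (0.9979) and Echdc2 (0.9976) for Angptl4, and Haus7 (0.9866) and Mybl1 (0.9858) for Apln.

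Receptors and partners of the 9 genes were examined as a list of 15, of which Ttr, a carrier of the Rbp4 protein, was at 0 in all libraries and 7 could be tested. At day 2, 4 were higher and 3 lower in KO-labelled than in WT-labelled cells, beside 40.8% and 40.6% of all genes. At day 0, 4 were higher and 2 lower, beside 38.3% and 44.2%. Over the cocktail 2 rose and 5 fell in KO-labelled cells, beside 33.9% and 38.8% of all genes, and 3 rose and 3 fell in WT-labelled cells, beside 34.2% and 46.5%. The median log2 change at day 2 between genotypes was 0.06, beside 0.0 over all genes. The adiponectin partners moved in opposite directions. Cdh13, the cadherin that binds multimeric adiponectin at the cell surface, averaged 211 ± 2.93 FPKM in KO-labelled and 6.53 ± 0.169 FPKM in WT-labelled cells at day 2, and 56.5 ± 0.947 FPKM in KO-labelled and 13.5 ± 0.25 FPKM in WT-labelled cells at day 0 (SD, n = 3 each). It was 32.4-fold higher in KO-labelled cells at day 2 (log2 change 4.82, SE 0.03, limma adjusted p = 5.15e-17) and rose 3.74-fold over the cocktail there, while it fell 2.06-fold in WT-labelled cells.

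Adipor2, an adiponectin receptor, averaged 116 ± 1.44 FPKM in KO-labelled and 654 ± 1.08 FPKM in WT-labelled cells at day 2, and 23.8 ± 1.03 FPKM in KO-labelled and 31.7 ± 0.532 FPKM in WT-labelled cells at day 0. It was 5.63-fold lower in KO-labelled cells at day 2 (log2 change -2.48, SE 0.03, limma adjusted p = 5.12e-15), and rose in both genotypes, 4.87-fold in KO-labelled and 20.6-fold in WT-labelled cells. Its relative Adipor1, chosen after its values were seen, was near level, at 52.6 ± 0.973 FPKM in KO-labelled and 50.5 ± 1.21 FPKM in WT-labelled cells at day 2. That difference barely passed (log2 change 0.06, limma adjusted p = 0.0486) and was lost without WT-labelled day 2 replicate 1 or 3 (limma adjusted p = 0.181 and 0.0834) and without KO-labelled day 2 replicate 2 or 3 (limma adjusted p = 0.166 and 0.0595). Lepr and Aplnr, the leptin and apelin receptors, and Stra6, the receptor of the Rbp4 protein, stayed below the filter.

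Proteins proposed to bind resistin in human cells, the lipopolysaccharide receptor Tlr4 and the adaptor Cap1, were both higher in KO-labelled cells at day 2. Tlr4 averaged 15.6 ± 1.36 FPKM in KO-labelled and 2.75 ± 0.507 FPKM in WT-labelled cells, 5.67-fold higher (log2 change 2.15, SE 0.09, limma adjusted p = 4.05e-10). Cap1, chosen after its values were seen, averaged 123 ± 3.83 FPKM in KO-labelled and 87.8 ± 3.31 FPKM in WT-labelled cells at day 2 (log2 change 0.48, limma adjusted p = 3.83e-08), and 160 ± 4.73 FPKM in KO-labelled and 296 ± 3.9 FPKM in WT-labelled cells at day 0 (log2 change -0.89, limma adjusted p = 1.38e-10), so its order was opposite at the 2 days.

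Mc2r, the ACTH receptor that Mrap serves, differed from Mrap in its day 0 level. It averaged 1.42 ± 0.219 FPKM in KO-labelled and 4.51 ± 0.111 FPKM in WT-labelled cells at day 2, and 1.85 ± 0.0822 FPKM in KO-labelled cells at day 0, with 0 reads in WT-labelled cells at day 0. At day 2 it was 3.17-fold lower in KO-labelled cells (log2 change -1.19, SE 0.08, limma adjusted p = 2.23e-08). At day 0 it was at least 61.0-fold higher in KO-labelled cells, with 176 reads against 0, and it rose at least 148-fold over the cocktail in WT-labelled cells. In KO-labelled cells Mc2r fell 1.3-fold over the cocktail (log2 change -0.24, limma adjusted p = 0.0141), a call lost without KO-labelled day 2 replicate 2 (-0.17, limma adjusted p = 0.0587). KO-labelled cells at day 0 thus held message for the receptor with 1 read of Mrap over the group.

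**Figure D3:**
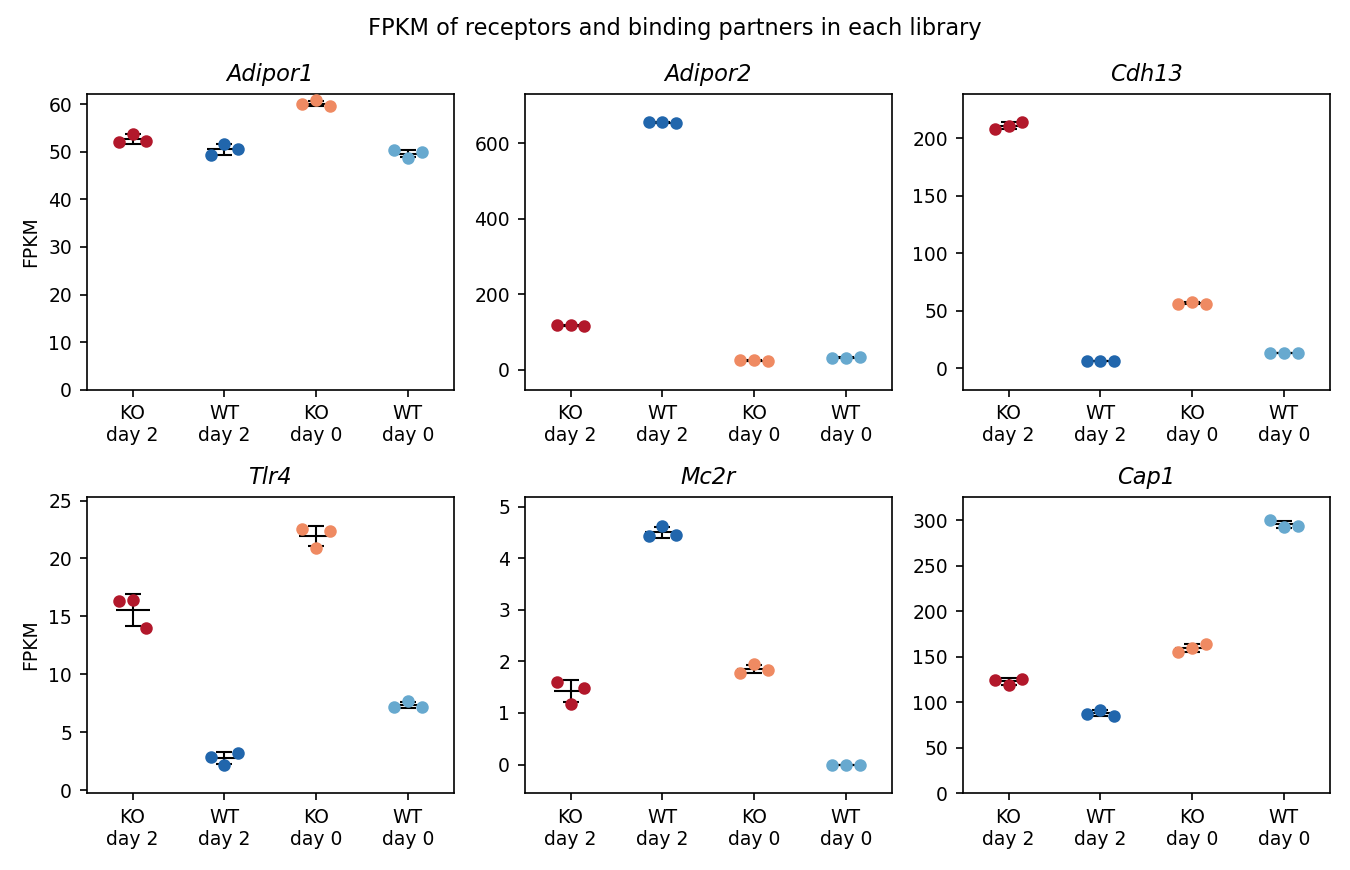
FPKM of 6 receptors and binding partners in each library, with points for libraries and black bars for the mean and SD of each group of 3; KO and WT are the libraries so labelled. Adipor2 and Mc2r were highest in WT-labelled day 2 libraries, Cdh13 in KO-labelled day 2 libraries, Tlr4 in KO-labelled day 0 libraries and Cap1 in WT-labelled day 0 libraries, while Adipor1 averaged 49.6 to 60.1 FPKM in the 4 groups.

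Enzymes of secretion, processing and the pathways of these proteins formed a list of 19 symbols, of which Pcsk3 is another name of Furin; 18 were in the table and 14 were tested. At day 2, 8 were higher and 5 lower in KO-labelled than in WT-labelled cells, beside 40.8% and 40.6% of all genes, with a median log2 change of 0.30 beside 0.0. At day 0, 5 were higher and 6 lower, beside 38.3% and 44.2% of all genes. Downstream of Nampt, Nmnat2, which makes NAD at the Golgi, averaged 34.3 ± 0.36 FPKM in KO-labelled and 7.19 ± 0.315 FPKM in WT-labelled cells at day 2, 4.77-fold higher (log2 change 2.11, SE 0.03, limma adjusted p = 7.15e-14). At day 0 it was lower in KO-labelled cells, at 15.3 ± 0.252 FPKM against 20.2 ± 0.351 FPKM in WT-labelled cells (log2 change -0.38, limma adjusted p = 4.75e-07). Nmnat1 of the same list, chosen after its values were seen, went the other way at day 2. It averaged 3.61 ± 0.286 FPKM in KO-labelled and 9.01 ± 0.51 FPKM in WT-labelled cells (log2 change -1.12, limma adjusted p = 3.12e-07). Nadk, which phosphorylates NAD to NADP, was 1.69-fold lower at day 2, at 133 ± 3.15 FPKM in KO-labelled and 225 ± 2.54 FPKM in WT-labelled cells (log2 change -0.76, SE 0.02, limma adjusted p = 3.67e-11). Furin, the protease that cleaves Angptl4 among other secreted proteins, was 2.55-fold higher at day 2, at 92.9 ± 2.4 FPKM in KO-labelled and 36.4 ± 1.3 FPKM in WT-labelled cells (log2 change 1.33, SE 0.03, limma adjusted p = 3.64e-12). Its order too was opposite at day 0, with 49.7 ± 1.66 FPKM in KO-labelled and 66.5 ± 1.29 FPKM in WT-labelled cells (log2 change -0.41, limma adjusted p = 2.08e-07).

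Masp1 and C3, which act with adipsin in complement, were higher in KO-labelled cells at day 2, where Cfd was lower. Masp1, whose product includes the protease that matures pro-adipsin, averaged 11.2 ± 0.598 FPKM in KO-labelled and 0.858 ± 0.186 FPKM in WT-labelled cells at day 2, 13.0-fold higher (log2 change 2.72, SE 0.08, limma adjusted p = 1.45e-11). At day 0 Masp1 was lower in KO-labelled cells, at 16.8 ± 1.35 FPKM against 23.7 ± 1.39 FPKM in WT-labelled cells (log2 change -0.47, limma adjusted p = 0.000159). C3, the complement protein of the same cascade, was chosen after its values were seen, and averaged 1173 ± 11.7 FPKM in KO-labelled and 727 ± 4.97 FPKM in WT-labelled cells at day 2 and 62.0 ± 2.16 FPKM in KO-labelled and 10.9 ± 0.13 FPKM in WT-labelled cells at day 0. It rose 18.9-fold over the cocktail in KO-labelled and 66.9-fold in WT-labelled cells. Ero1a, an oxidase that aids adiponectin secretion and was also chosen after its values were seen, averaged 132 ± 4.61 FPKM in KO-labelled and 168 ± 5.15 FPKM in WT-labelled cells at day 2, 1.27-fold lower, and 102 ± 0.236 FPKM in KO-labelled and 36.7 ± 0.856 FPKM in WT-labelled cells at day 0, 2.78-fold higher.

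Other secreted factors of fat cells, a list of 36 of which 35 were in the table and 21 were tested, did not share one direction. At day 2, 10 were higher and 10 lower in KO-labelled than in WT-labelled cells, beside 40.8% and 40.6% of all genes, with a median log2 change of -0.02 beside 0.0. At day 0, 13 were higher and 4 lower, beside 38.3% and 44.2%, with a median of 0.47 beside -0.06. Over the cocktail 10 rose and 9 fell in each genotype, beside 33.9% and 38.8% of all genes in KO-labelled and 34.2% and 46.5% in WT-labelled cells. Lpl, lipoprotein lipase, which the Angptl4 protein inhibits, averaged 273 ± 6.56 FPKM in KO-labelled and 2418 ± 12.6 FPKM in WT-labelled cells at day 2, 8.87-fold lower (log2 change -3.14, SE 0.03, limma adjusted p = 1.26e-15). At day 0 it was 3.41-fold higher in KO-labelled cells, at 190 ± 3.62 against 55.9 ± 2.32 FPKM in WT-labelled cells, so Lpl and Angptl4 both reversed their order between the days.

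The other 3 secreted factors with the smallest adjusted p at day 2 were higher in KO-labelled cells. Fstl1, a follistatin-like glycoprotein, averaged 2421 ± 10.3 FPKM in KO-labelled and 306 ± 5.4 FPKM in WT-labelled cells, 7.92-fold higher (log2 change 2.98, SE 0.02, limma adjusted p = 8.1e-17). Igf1, the insulin-like growth factor, was 14.5-fold higher, at 39.9 ± 1.92 FPKM in KO-labelled and 2.75 ± 0.216 FPKM in WT-labelled cells. C1qtnf6, of the C1q/TNF protein family to which adiponectin belongs, was 4.56-fold higher, at 56.2 ± 0.555 FPKM in KO-labelled and 12.3 ± 0.295 FPKM in WT-labelled cells. The preadipocyte marker sums above were also higher in KO-labelled cells at both days. Unlike these 3 genes, the sums were higher in WT-labelled cells at day 0 than in KO-labelled cells at day 2. In WT-labelled cells at day 0 Fstl1 averaged 1031 FPKM, Igf1 9.87 FPKM and C1qtnf6 35.6 FPKM. The part of the markers was not tested.

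Several secreted factors rose strongly and to a high level in both genotypes, and the 4 given here were chosen after their values were seen. Adipoq, Retn and Mrap also rose in KO-labelled cells, by ratios of 8.25, 13.5 and 13.1 on few reads. They reached only 0.472, 1.32 and 0.29 FPKM there at day 2. Retnla, a relative of resistin, reached 58.1 ± 4.41 FPKM in KO-labelled and 97.8 ± 2.18 FPKM in WT-labelled cells at day 2, 1.68-fold lower (log2 change -0.74, SE 0.07, limma adjusted p = 4.71e-07), where Retn was 77.5-fold lower. Lcn2, an iron-siderophore binding protein, reached 71.5 ± 3.57 FPKM in KO-labelled and 172 ± 3.16 FPKM in WT-labelled cells and rose 145-fold in KO-labelled and 2497-fold in WT-labelled cells. Its WT-labelled day 0 level rested on 4 reads, and leaving out single libraries gave 1665 to 3388 in place of 2497. Agt, angiotensinogen, reached 94.0 ± 3.65 FPKM in KO-labelled and 199 ± 1.73 FPKM in WT-labelled cells and rose 34.3-fold in KO-labelled and 539-fold in WT-labelled cells. Hp, haptoglobin, reached 11.4 ± 0.94 FPKM in KO-labelled and 37.7 ± 1.38 FPKM in WT-labelled cells and rose 33.7-fold in KO-labelled and 458-fold in WT-labelled cells, the last against 5 reads at day 0 and at 380 to 517 with single libraries left out. All 4 were lower in KO-labelled cells at day 2, by 1.68- to 3.31-fold. The gap of Adipoq, Retn, Cfd and Mrap was wider, but these passed the filter only through the WT-labelled day 2 libraries. This contrast follows from the choice of both sets of genes and is a description. At day 0 Lcn2, Agt and Hp were called higher in KO-labelled cells, 7.18-, 7.43- and 4.12-fold, and Retnla was not called. The unequal rises of Lcn2, Agt and Hp thus also reflect their day 0 levels.

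**Figure D4:**
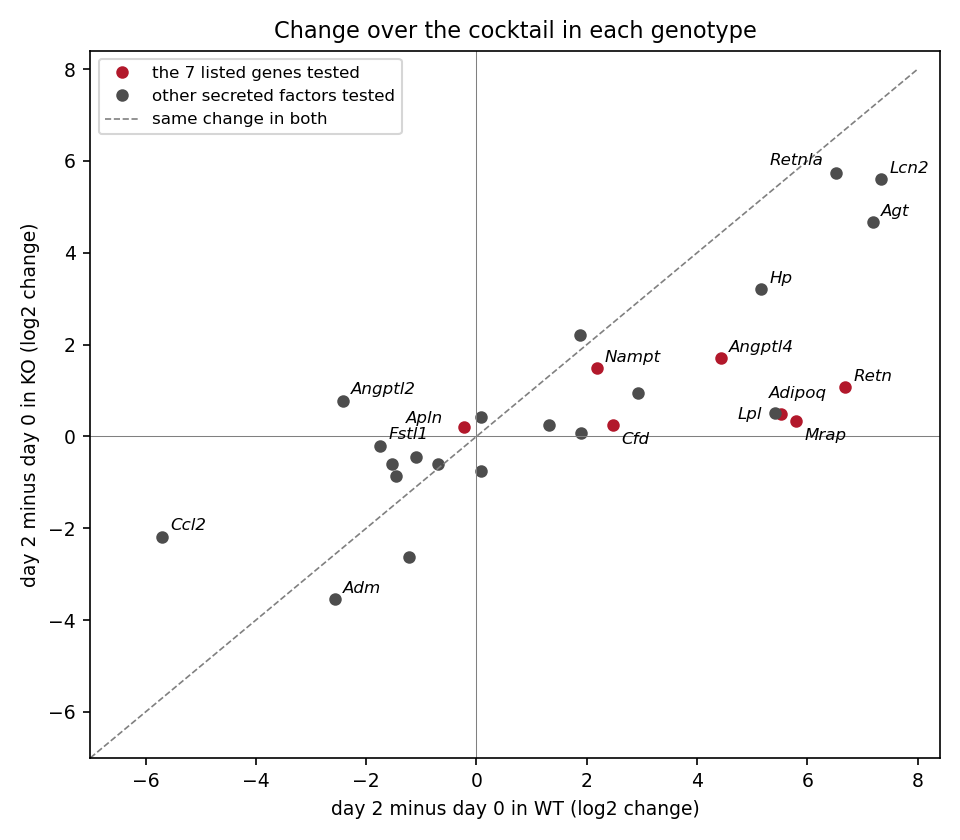
Log2 change from day 0 to day 2 in KO-labelled cells (vertical) against WT-labelled cells (horizontal), on the log2(FPKM + 1) scale, with red points for the 7 listed genes tested, grey points for other secreted factors tested and a dashed line where both changes are equal. Adipoq, Retn and Mrap lay between 0.34 and 1.08 on the KO-labelled axis and at 5.52 or more on the WT-labelled axis. Retnla, Lcn2, Agt and Hp lay far up on both axes. This scale understates the change of a low gene, such as Adipoq, Retn and Mrap in KO-labelled cells.

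Angptl2, a relative of Angptl4, was chosen after its values were seen for a change unlike those of the 9 genes. It averaged 85.6 ± 1.54 FPKM in KO-labelled and 13.0 ± 0.894 FPKM in WT-labelled cells at day 2, and 49.4 ± 1.33 FPKM in KO-labelled and 74.1 ± 1.28 FPKM in WT-labelled cells at day 0 (SD, n = 3 each). Angptl2 rose 1.73-fold over the cocktail in KO-labelled cells and fell 5.68-fold in WT-labelled cells (interaction log2 3.20, SE 0.06, limma adjusted p = 6.76e-13).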

How the data were processed

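RNA of 12 libraries (3 per genotype label and day) was measured; FPKM values per gene were deposited by the authors, and TopHat2 2.0.12, Bowtie2 2.2.3 and HTSeq 0.6.1 are among the tools listed, with build mm10 and no roles, per the submitters' processing notes. The sources used here give no annotation, strand setting or FPKM formula. Symbols were paired with 51633 of 52505 identifiers. In all 30916 genes above 0 the values were whole multiples of one step (tolerance 0.001 of a read), which gave the reads. With R 4.3.3 and limma 3.58.1, log2(FPKM + 1) of genes whose mean reached 1 FPKM was fitted with a mean per group and a variance trend; tests were 2-sided with Benjamini-Hochberg adjustment within each comparison. The procedure was tested on simulated data. Intervals on ratios with 1 to 3 reads are exact 95% counting intervals. The 9 genes and the other lists were chosen with earlier results of these data known. Each list names the 4 tested members with the smallest adjusted p between genotypes at day 2, and others are marked where named. Ero1a was matched by an older symbol, and Asip was not analysed here. Positions and promoters come from RefSeq for GRCm38.p6, the assembly of mm10. One listed gene is counted in its list but not reported here.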

Additional observations from a re-analysis of the deposited data

Results flagged for a closer look

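The change over the cocktail differed between the genotype labels in all 7 genes tested, by a test of the difference itself. That difference was day 2 minus day 0 in KO-labelled minus the same in WT-labelled cells (limma, adjusted over 12961 genes). In this test 40.8% of all genes were called higher and 33% lower. On the log2(FPKM + 1) scale the difference was -5.61 for Retn (adjusted p = 1.34e-12), -5.47 for Mrap (3.08e-13), -5.04 for Adipoq (1.23e-12), -2.72 for Angptl4 (1.7e-12), -2.22 for Cfd (2.1e-08), -0.71 for Nampt (3.91e-09) and 0.43 for Apln (0.000469). Adipoq, Retn, Cfd and Mrap reached the filter of 1 FPKM only through the WT-labelled day 2 libraries, so the sign of their difference was set by that choice, and only those of Nampt, Angptl4 and Apln were free of it. All 3 KO-labelled day 2 libraries exceeded all 3 KO-labelled day 0 libraries in each of the 7 genes. In WT-labelled cells day 2 exceeded day 0 in the same way in 6 of them, with Apln in the opposite direction. The share of all genes set apart in this way was not counted, so this is a description. Over the cocktail 33.9% of all genes were called higher and 38.8% lower in KO-labelled cells, and 34.2% and 46.5% in WT-labelled cells. Groups of 3 libraries are too small for a test of single libraries standing apart.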

How the results depend on the processing

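Over 550 alternative values of the 35 member changes, 540 kept their direction and side of the threshold, 7 lost the call, 3 gained one and 0 reversed. For the other secreted factors, receptors, partners and enzymes named, Nmnat1 apart, 1654 of 1675 kept them, with 0 reversed. With a pseudocount of 0.1 the number of the 7 genes called higher at day 0 in KO-labelled against WT-labelled cells was 2, Retn joining (log2 change 0.86, limma adjusted p = 0.0199), and Mrap was called lower (-0.55, limma adjusted p = 0.047). Leaving out single libraries gave 1 to 2 called higher there, the 2 without KO-labelled day 0 replicate 3. With a filter at a mean of 5 FPKM, which drops Apln and Cfd, 1 gene was called lower at day 0, 0 lower over the cocktail in WT-labelled cells and 0 higher in the interaction. No label says that a replicate number marks a shared culture. Deviations of same-numbered libraries correlated at -0.0545 to 0.0869. The best match in another group carried the same number for 6 of 12 libraries. The number expected by chance was not worked out, so these values do not decide whether cultures were shared. The replicate block changed 1 member call, the rise of Cfd in KO-labelled cells (limma adjusted p = 0.0517), and that of Adipor1 at day 2 (limma adjusted p = 0.0656). With voom on recovered reads the interaction of Retnla did not pass (log2 -1.35, limma adjusted p = 0.153); the cause was not tested. Genes under 30 reads a group, such as Adipoq, Cfd and Mrap in KO-labelled day 2 cells, are limited by counting error.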
